A study of Mus musculus and Homo sapiens with 30 samples.

Results

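The endothelial protein C receptor gene Procr and 8 further genes that govern coagulation and plasminogen activation at the cell surface (Thbd, F3, Tfpi, Plau, Plaur, Plat, Serpine2 and F2r) were followed across 2 mouse mammary cell lines in 3 media. They are 9 of the 56980 gene IDs in the mouse count table. The genes were chosen by function around Procr, which was itself chosen for the size of its rise in E0771 cells given lean secretome. Its difference there is therefore given as a description without a test.

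E0771 cells come from a mouse mammary cancer and NMuMG cells from mouse mammary gland epithelium, although the labels give breast cancer as the cell type of both. Cells of each line grew for 36 h and then spent 16 h in growth medium alone (Control) or in equal parts of it and a secretome (50%), which is medium conditioned by cells. The secretomes came from inguinal adipocytes, lean or obese. Each line and medium had 3 replicates, which makes 18 libraries in 6 groups. The series title links an oxylipin secreted by lean adipocytes to ferroptosis, an iron-dependent form of cell death. E0771 cells were kept in DMEM with 10% FBS. NMuMG medium also held insulin at 10 mcg/ml and glucose at 4.5 g/L, so line and growth medium cannot be told apart in any comparison of the lines. Control medium held no secretome, so lean and obese secretome are the matched pair. The labels do not name the species of the adipocytes or say whether replicates were separate cultures. The p-values below therefore measure the spread between these libraries, which may be technical. The 12 libraries of the human line SkBr3 were not analysed here.

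Coagulation begins when tissue factor, encoded by F3, binds factor VIIa on a cell surface and starts the reactions that form thrombin. Tfpi encodes the inhibitor of that step, F2r the main thrombin receptor PAR1, and Thbd and Procr the thrombomodulin and protein C receptor that turn thrombin toward activating the anticoagulant protein C. Plasminogen is made into plasmin, which dissolves fibrin and degrades matrix, by urokinase (Plau) held on its receptor (Plaur) and by tissue plasminogen activator (Plat), and Serpine2 encodes protease nexin-1, an inhibitor of thrombin and of plasminogen activators. Tissue factor and the urokinase receptor are known for their high levels in many carcinomas, and Procr is known as a marker of a mammary stem cell population.

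RefSeq promoter windows (build GRCm38.p6) were at hand for 6 of the 9 genes (all but Thbd, Plau and Plat), and 4 of the 6 held the AP-1 heptamer TGACTCA, read on either strand, within the 250 bases before the start. AP-1 is the FOS and JUN family of transcription factors. The heptamer stood in 4.46% of the 32851 mouse windows of this length. In Procr and F2r it lay inside a match to TGACNNNGC, the core of the antioxidant response element bound by NRF2, which stood in 10.2% of all windows. The Procr matches began 154 bases before the start and the F2r matches ended 198 bases before it, whereas the heptamer began at 135 bases in F3 and at 69 bases in Plaur. Neither motif was found in the windows of Tfpi and Serpine2. The Serpine2 window and another window of Tfpi lay inside the gene as GENCODE annotates it. A match to either motif describes letters and is not evidence of a bound site. Any part of these matches in the response to lean secretome was not tested. The 4 stretches with a match are shown. Each is 5′ to 3′ on the strand of the gene, and capitals mark the antioxidant core with the heptamer inside it (Procr and F2r) or the heptamer alone (F3 and Plaur). They lie at chr2:155750967-155751116 (plus strand, Procr), chr3:121723287-121723536 (plus strand, F3), chr7:24462233-24462482 (plus strand, Plaur) and chr13:95618488-95618716 (minus strand, F2r). The stretches of Procr (150 bases) and F2r (229 bases) were cut where the gene begins in the GENCODE annotation. The positions above count from the RefSeq start, which for Procr and F2r lies past the end of the printed stretch.
Procr: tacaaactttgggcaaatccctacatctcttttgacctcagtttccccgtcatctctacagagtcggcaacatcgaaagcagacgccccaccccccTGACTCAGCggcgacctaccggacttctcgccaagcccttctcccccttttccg
F3: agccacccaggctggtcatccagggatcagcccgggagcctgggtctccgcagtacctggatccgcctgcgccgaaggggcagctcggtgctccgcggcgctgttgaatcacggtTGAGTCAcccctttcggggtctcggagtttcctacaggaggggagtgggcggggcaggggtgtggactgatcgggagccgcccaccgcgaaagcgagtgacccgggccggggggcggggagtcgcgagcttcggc
Plaur: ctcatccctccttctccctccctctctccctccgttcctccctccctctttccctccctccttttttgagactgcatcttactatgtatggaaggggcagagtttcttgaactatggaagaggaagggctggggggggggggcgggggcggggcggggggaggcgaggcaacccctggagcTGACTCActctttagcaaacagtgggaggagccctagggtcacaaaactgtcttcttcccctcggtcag
F2r: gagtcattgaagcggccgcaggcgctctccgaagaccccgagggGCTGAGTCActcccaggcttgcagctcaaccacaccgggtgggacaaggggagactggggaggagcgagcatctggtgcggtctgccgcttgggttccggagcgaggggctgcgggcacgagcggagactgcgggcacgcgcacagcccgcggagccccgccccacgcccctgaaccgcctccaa

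**Figure D1:**
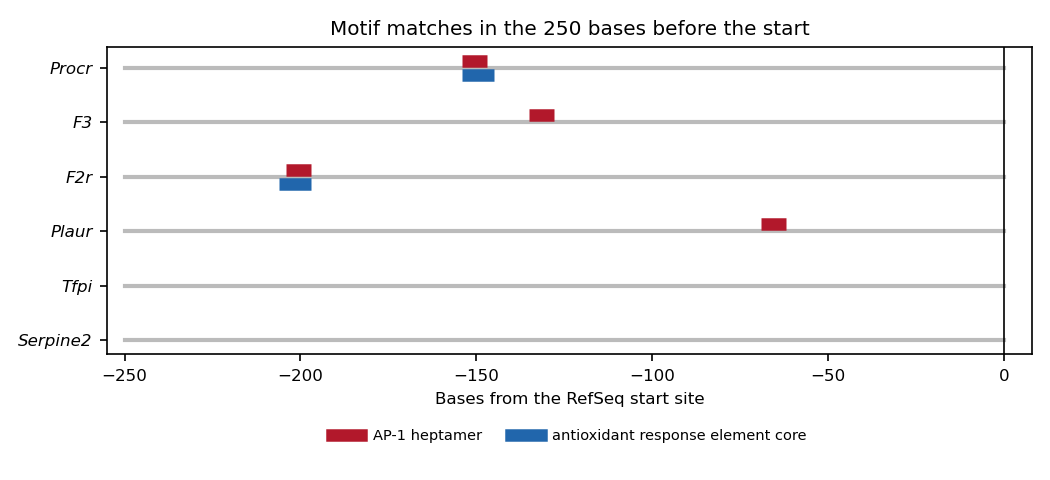
Position of the motif matches in the 250 bases before the RefSeq start of 6 genes, with distance from the start in bases on the horizontal axis and 1 line per gene. The AP-1 heptamer (red) appears in Procr, F3, F2r and Plaur, and the antioxidant response element core (blue) in Procr and F2r.

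Total counts lay between 22929035 and 31094119 per library in E0771 and between 23966897 and 29686456 in NMuMG. Of 6 epithelial markers, NMuMG expressed all at 1 CPM (counts scaled to a common library total) or more. E0771 expressed 1, Krt8, with Krt19 at 0 and Epcam, Cdh1, Krt18 and Krt7 under 0.2 CPM on average. The obese replicate 1 library stood apart from the other obese libraries in both lines. On the first principal component (57.4% of the variance in E0771, 44.5% in NMuMG) it lay at -10.5 in E0771 against -20.5 and -16.0 for the other 2, with the lean libraries between 35.2 and 43.7. In NMuMG it lay at -2.90 against -17.1 and -13.4, with the lean libraries between 26.8 and 34.0. Differences from the obese group are therefore given again without it beside the results.

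In E0771, Procr was measured at 9.16, 7.27 and 6.76 CPM in the control libraries, at 15.3, 7.75 and 7.87 CPM with obese secretome and at 61.0, 55.0 and 84.2 CPM with lean secretome. The 3 lean libraries all stood far above the other 6, while the obese and control libraries overlapped. In bulk libraries such as these, more cells that express a gene and more of its RNA per cell cannot be told apart. The lean mean of 66.7 ± 15.4 CPM (SD, n = 3) was 8.63 times the control mean of 7.73 ± 1.26 and 6.48 times the obese mean of 10.3 ± 4.31. The fitted difference of lean from obese was 3.09 (log2) without obese replicate 1. The fitted log2 difference of lean from control (SE 0.314) ranked 30 among 13813 genes tested, ordered from the largest rise down. Leaving out 1 library at a time moved that difference between 2.89, without lean replicate 3, and 3.23, without control replicate 1.

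In NMuMG the same gene gave 9.50, 9.04 and 9.29 CPM in control medium, 11.7, 8.63 and 10.7 CPM with obese secretome and 18.9, 17.4 and 19.6 CPM with lean secretome. Every lean library again lay above the other 6, with a much narrower gap. Procr rose with lean secretome over control by 1.00 on the log2 scale (SE 0.0893, adjusted p = 3.02e-11), and over obese secretome by 0.83 (SE 0.0895, adjusted p = 3.34e-09). These tests, from edgeR's quasi-likelihood fit with Benjamini-Hochberg adjustment over all genes of the line, used libraries that the choice of Procr did not. The rise over control held in all 11 alternative settings, at 0.97 to 1.05. Without obese replicate 1 the difference between lean and obese was 0.94 (adjusted p = 1.09e-10). Ordered by mean CPM, Procr ran from E0771 control (7.73) through NMuMG control (9.28), E0771 obese (10.3) and NMuMG obese (10.3) to NMuMG lean (18.6) and E0771 lean (66.7). The first 4 groups in that order overlapped with their neighbours. The lean groups of the lines did not overlap with them or with each other. The difference between the lines in the lean effect was not tested, because the choice of Procr used the E0771 lean libraries.

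**Figure D2:**
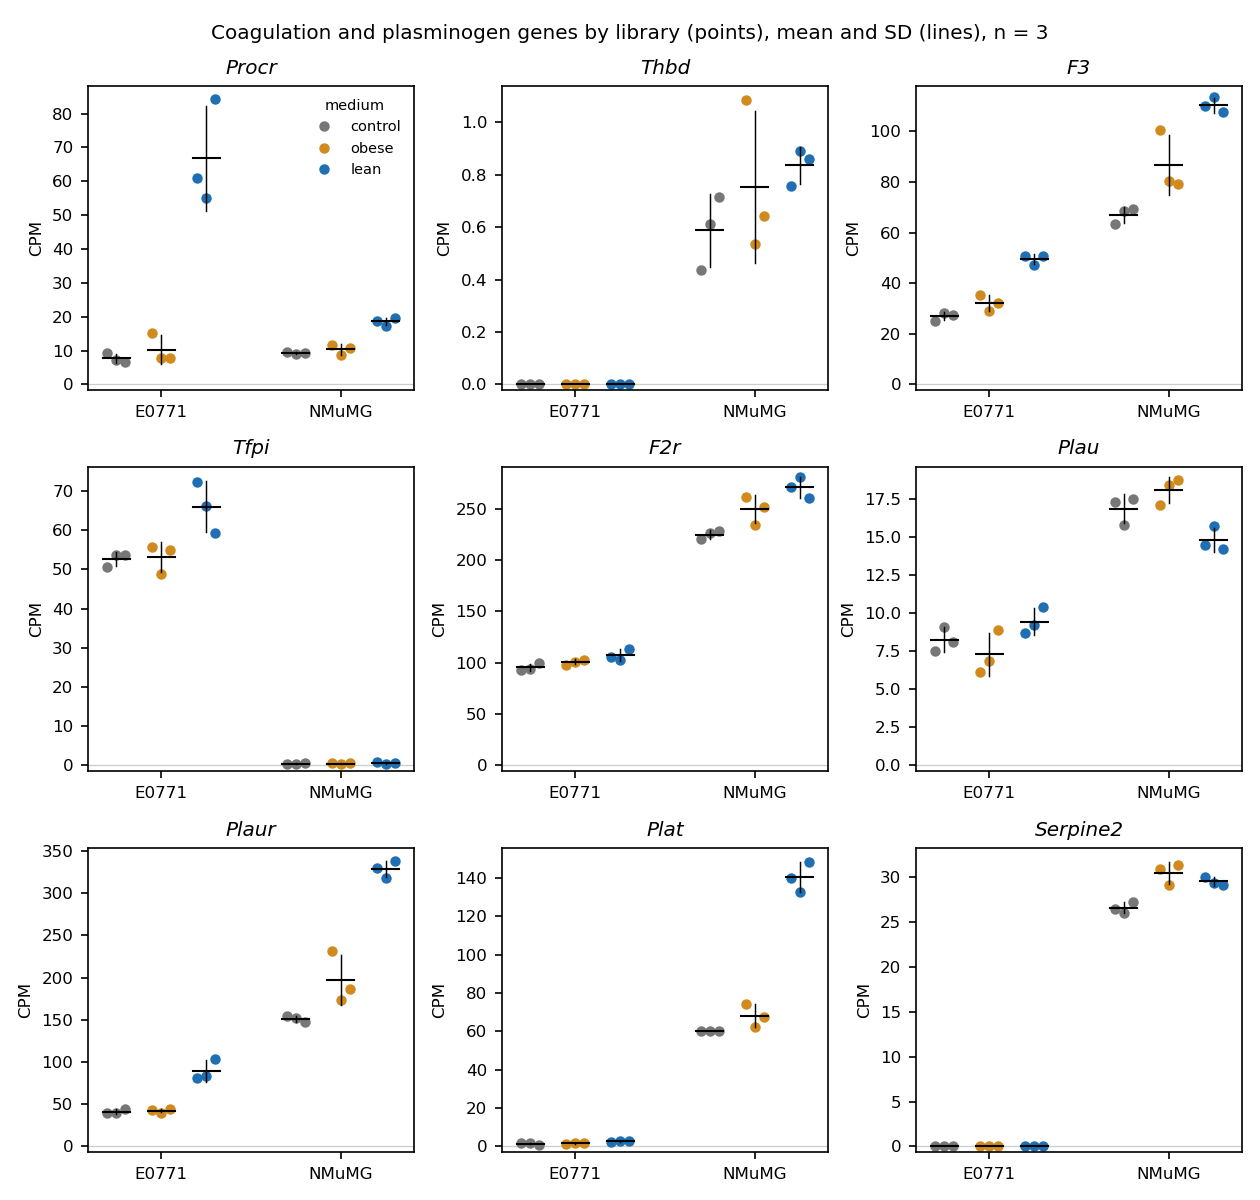
CPM of the 9 genes in the 18 mouse libraries, 1 panel per gene with its own axis from 0. Points are libraries in control (grey), obese (orange) and lean (blue) medium, horizontal lines are means and vertical lines are SD (n = 3). Procr in E0771 lean libraries stands at 55.0 to 84.2 CPM while every other library is at 19.6 or below.

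Thbd, which encodes the cofactor for the protein C pathway on which Procr acts, had no read in any E0771 library. The 9 libraries held 242890182 reads in all, so at 3 reads as the floor a level of up to 0.0124 CPM would have gone unseen. In NMuMG it was low, at 0.438, 0.613 and 0.715 CPM in control medium, 1.08, 0.537 and 0.642 with obese secretome and 0.757, 0.890 and 0.861 with lean secretome. The lean libraries lay just above the control libraries and overlapped with the obese ones. Its log2 difference of lean from control was 0.51 (SE 0.338, adjusted p = 0.250), with a 95% interval from -0.18 to 1.20, so a change was not detectable at this depth.

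F3, the trigger of coagulation, was at 25.3, 28.4 and 27.5 CPM in E0771 control libraries, 35.3, 28.9 and 32.1 with obese secretome and 50.7, 47.2 and 50.7 with lean secretome. In NMuMG its levels were 63.2, 68.4 and 69.3, then 100.4, 80.4 and 79.3, then 110.0, 113 and 107 CPM in the same order of media. In both lines the groups followed each other without overlap, control lowest and lean highest. In NMuMG F3 rose with lean secretome by 0.72 over control (log2, SE 0.0932, adjusted p = 4.50e-04) and by 0.34 over obese secretome (SE 0.0921, adjusted p = 0.0241). The second of these was at an adjusted p of 0.0644 without lean replicate 1, 0.0693 without lean replicate 2, 0.0621 without lean replicate 3 and 0.0645 without obese replicate 2. It was 0.46 without obese replicate 1 (adjusted p = 9.76e-11). In E0771 the lean group lay 0.86 above control and 0.62 above obese on the log2 scale (0.69 without obese replicate 1), values given without a test.

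Tfpi, the inhibitor of the tissue factor complex, was expressed in one line and nearly silent in the other. E0771 gave 50.5, 53.6 and 53.6 CPM in control medium, 55.8, 48.8 and 54.9 with obese secretome and 72.3, 66.2 and 59.3 with lean secretome. The E0771 lean libraries lay above the rest, by 0.32 over control and 0.30 over obese on the log2 scale (0.34 without obese replicate 1), which is far less than for Procr. NMuMG libraries held between 0.248 and 0.791 CPM with all 3 media overlapping, and the difference of lean from control was 0.27 with a 95% interval from -0.56 to 1.10 (adjusted p = 0.648). The depth could not show a change of that size in NMuMG.

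F2r, the thrombin receptor, was at 92.9, 93.7 and 99.6 CPM in E0771 control libraries, 98.2, 101 and 103 with obese secretome and 106, 103 and 114 with lean secretome. NMuMG gave 220.3, 226 and 228 CPM, then 262, 235 and 252, then 271, 281 and 260.1 in that order. The lean libraries exceeded the control libraries in both lines, but by little. In NMuMG the rise with lean secretome over control was 0.27 on the log2 scale (SE 0.0385, adjusted p = 8.27e-07). Its difference of lean from obese was 0.11 (SE 0.0385, adjusted p = 0.0315), and this call was lost without lean replicate 1 (adjusted p = 0.0761), lean replicate 2 (0.189), obese replicate 2 (0.266) or obese replicate 3 (0.0520). The difference was 0.15 without obese replicate 1 (adjusted p = 0.00334).

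Among the plasminogen genes, the urokinase receptor gene Plaur was about 2 times as high in the lean libraries of both lines as in control. E0771 gave 40.1, 39.5 and 44.5 CPM in control medium, 43.4, 40.0 and 44.1 with obese secretome and 80.6, 83.2 and 104 with lean secretome. NMuMG gave 154, 152 and 147, then 231, 174 and 186, then 329.9, 318 and 337 CPM. The lean libraries stood clear of all others in each line. The obese libraries overlapped with control in E0771 and lay wholly above it in NMuMG. In NMuMG Plaur rose by 1.13 over control (log2, SE 0.106, adjusted p = 2.12e-04) and by 0.72 over obese secretome (adjusted p = 0.00205), or by 0.86 without obese replicate 1 (adjusted p = 2.23e-21). In E0771 the lean group lay 1.10 above control and 1.06 above obese, or 1.08 without obese replicate 1.

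Plau, which encodes the protease that binds this receptor, was not highest in the NMuMG lean libraries. It was at 17.3, 15.8 and 17.5 CPM in control medium, 17.1, 18.4 and 18.8 with obese secretome and 14.5, 15.7 and 14.2 with lean secretome, with every lean library below every other. It fell by 0.30 against obese secretome (log2, SE 0.0748, adjusted p = 0.00153) and by 0.19 against control (SE 0.0744, adjusted p = 0.0442). The first of these calls held in all 11 alternatives (-0.33 without obese replicate 1, adjusted p = 0.00129) and the second in 4 of 11. Without control replicate 1, control replicate 3, lean replicate 1 or lean replicate 3 the adjusted p of the second was 0.131, 0.149, 0.117 and 0.155. In E0771, Plau was at 7.52, 9.13 and 8.11 CPM in control medium, 6.16, 6.88 and 8.90 with obese secretome and 8.69, 9.25 and 10.4 with lean secretome. There the media overlapped, and the lean group lay 0.19 above control and 0.36 above obese on the log2 scale, or 0.25 above obese without obese replicate 1.

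Plat, the tissue plasminogen activator gene, was at 60.0, 60.1 and 60.2 CPM in NMuMG control libraries, 74.3, 62.5 and 67.7 with obese secretome and 140.1, 132 and 148 with lean secretome. The lean libraries held about 2 times the level of the others and the 3 groups did not overlap. Plat rose by 1.23 over control (log2, SE 0.0502, adjusted p = 2.75e-16) and by 1.03 over obese secretome (SE 0.0501, adjusted p = 2.58e-14), and its fitted difference from control was the highest of the 9 genes in this line. The rise over obese secretome was 1.10 without obese replicate 1 (adjusted p = 4.71e-22). In E0771 it was low, at 1.61, 1.79 and 1.00 CPM, then 1.45, 1.57 and 1.95, then 2.43, 2.94 and 2.96 in the order control, obese, lean. The E0771 lean libraries were again the highest, by 0.89 over control (SE 0.216) and 0.73 over obese (SE 0.211), or 0.64 over obese without obese replicate 1.

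Serpine2, the protease nexin-1 gene, had 1 read in the 9 E0771 libraries, in control replicate 1, and no change with medium could be measured there. In NMuMG it was at 26.5, 26.0 and 27.3 CPM in control medium, 30.9, 29.1 and 31.4 with obese secretome and 30.1, 29.4 and 29.2 with lean secretome. Both secretomes lay above control and overlapped with each other. The rise with lean secretome over control was 0.15 (log2, SE 0.0576, adjusted p = 0.0327). It was at an adjusted p of 0.0901 without control replicate 1, 0.0913 without control replicate 2, 0.110 without lean replicate 1 and 0.0668 without lean replicate 2. Lean and obese secretome differed by -0.06, with a 95% interval from -0.18 to 0.06 (adjusted p = 0.467), and by -0.04 without obese replicate 1 (adjusted p = 0.666).

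**Figure D3:**
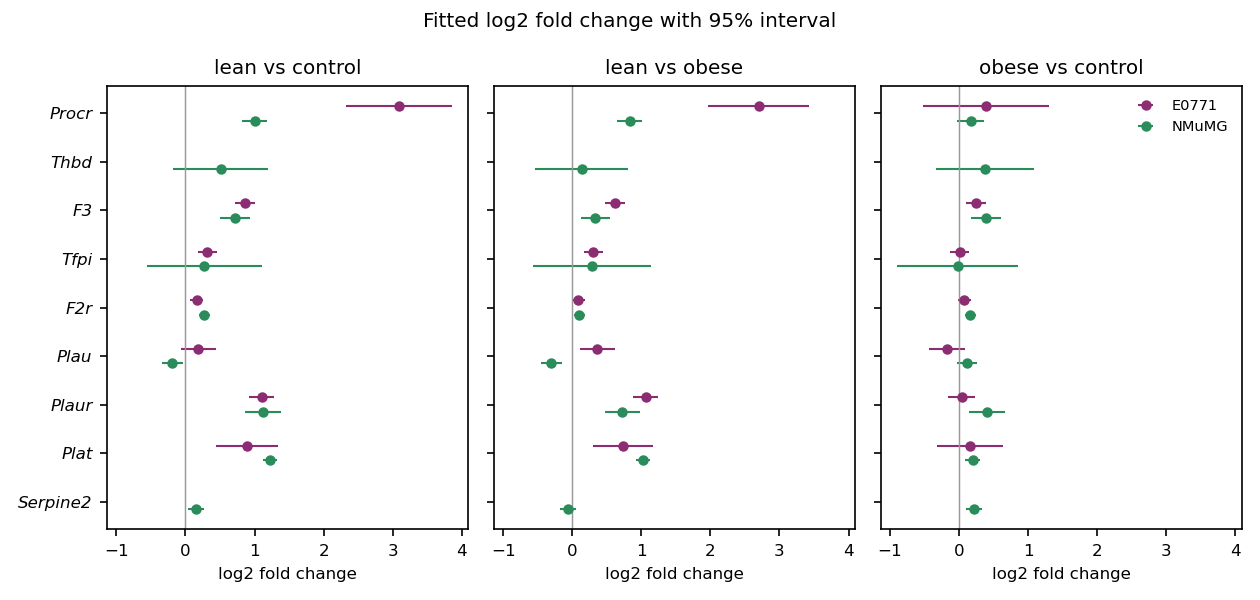
Fitted log2 fold change of each gene with its 95% interval in 3 comparisons, E0771 in purple and NMuMG in green, with 0 marked by a vertical line. Thbd and Serpine2 were not fitted in E0771, the E0771 lean values are a description, and Procr in E0771 at 3.09 is the largest value.

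Counted over the comparison of lean secretome with control, NMuMG had 6 of 9 genes higher (Procr, F3, F2r, Plaur, Plat and Serpine2) and 1 lower (Plau) at an adjusted p under 0.05. In that comparison 38.2% of the 15014 genes tested were called, 19.1% higher and 19.1% lower. The median log2 difference was 0.51 over the 9 genes and 0.00 over all genes. Against obese secretome 5 were higher and 1 was lower, where 35% of all genes were called (17.6% higher, 17.4% lower), and the counts were also 5 and 1 without obese replicate 1. In E0771, Thbd and Serpine2 did not pass the filter on low counts. The other 7 are given without a test in the lean comparisons. Their median log2 difference of lean from control was 0.86, where 56.3% of 13813 genes passed the same threshold, 27.3% as higher and 29% as lower. Against obese secretome their median was 0.62, where 52.7% of all genes passed (25.8% as higher, 26.9% as lower). Nothing is read from these E0771 medians, since the genes were gathered around the response of Procr in the same libraries. The comparisons of lean with control and of lean with obese share the lean libraries. As the 9 genes were chosen with earlier results of these data known, the NMuMG counts describe the set and do not test it.

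With obese secretome the changes were small. In E0771 none of the 7 genes tested passed in edgeR, against 2.61% of all genes (1.21% higher, 1.4% lower). At an unadjusted p under 0.05 there was 1 (F3), and DESeq2 called 1 (F3). F3 lay 0.24 above control (log2, SE 0.0707, adjusted p = 0.0687), and 0.17 without obese replicate 1 (adjusted p = 0.339). It passed, at 0.32, when obese replicate 2 was left out (adjusted p = 0.0158). Procr differed by 0.39 with a wide 95% interval from -0.51 to 1.30 (adjusted p = 0.702). That value rested on obese replicate 1, since the other 2 obese libraries lay within the range of the control libraries and gave a difference of 7.05e-05 (adjusted p = 1.00). The rise that Procr was chosen for was measured against libraries of this comparison, so its tests here are not independent of that choice. Plaur differed by 0.04, with an interval from -0.16 to 0.23 (adjusted p = 0.895).

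In NMuMG 3 of the 9 genes rose with obese secretome over control and the other 6 did not pass, where 5.01% of all genes were called (2.34% higher, 2.66% lower). F2r rose by 0.17 (log2, SE 0.0387, adjusted p = 0.00757), Serpine2 by 0.21 (SE 0.058, adjusted p = 0.0239) and Plat by 0.20 (SE 0.0525, adjusted p = 0.0244). Each of these calls was lost without obese replicate 1, at 0.13 for F2r (adjusted p = 0.0724), 0.20 for Serpine2 (0.0883) and 0.13 for Plat (0.185). All 3 were also lost without control replicate 1, at adjusted p-values of 0.0820, 0.101 and 0.0958 in that order. Serpine2 and Plat were lost as well without control replicate 2 (adjusted p = 0.101 and 0.104) and without obese replicate 3 (0.117 and 0.0681), and Plat without control replicate 3 (0.0773). F3 and Plaur, with larger differences of 0.39 and 0.40, missed the threshold (adjusted p = 0.0666 and 0.111). Without obese replicate 1 both passed, at 0.27 (adjusted p = 2.61e-04 for F3 and 1.34e-05 for Plaur). In the NMuMG obese group, obese replicate 1 was the highest library for 7 of the 9 genes, and in E0771 for 3 of the 7 with reads. Procr differed by 0.17 in NMuMG, with an interval from -0.03 to 0.37 (adjusted p = 0.399), and by 0.07 without obese replicate 1 (adjusted p = 0.843). The interaction of line and obese secretome, tested in 1 fit of the 18 libraries, called none of the 7 genes with reads in both lines, against 1.69% of all genes (1.06% higher, 0.623% lower in E0771). None of them was under 0.05 unadjusted and DESeq2 called none. Plaur came closest, at -0.35 for E0771 minus NMuMG (adjusted p = 0.384, 95% interval from -0.71 to 0.00). It was -0.37 without obese replicate 1 of E0771 (adjusted p = 0.438) and -0.22 without that of NMuMG (adjusted p = 0.504), and none of the 7 was called in either fit.

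Levels in control medium differed between the lines for 8 of the 9 genes, where 80.5% of the 16529 genes tested differed, 37.1% higher in E0771 and 43.4% lower. Tfpi was the 1 gene higher in E0771, with 52.5 ± 1.77 CPM against 0.467 ± 0.101 (SD, n = 3 each), a 103-fold difference (log2 6.69, SE 0.151, adjusted p = 5.06e-28). The other 7 were lower in E0771. Serpine2 had 1 read in the E0771 control libraries against 2229 in those of NMuMG, a ratio per total of 2053 with a counting interval from 368 to 81120. Thbd, at 0 reads in E0771 against 49 in NMuMG, was at least 15.0-fold higher in NMuMG at a floor of 3 reads over the group. These intervals and floors cover counting error only. Plat was lower in E0771 by a log2 difference of -5.44 (SE 0.104, adjusted p = 2.55e-35), Plaur by -1.98 (SE 0.117), F3 by -1.42 (SE 0.0886), F2r by -1.35 (SE 0.0443) and Plau by -1.14 (SE 0.0998). For Procr the lines did not differ beyond the spread, at -0.37 (SE 0.282, adjusted p = 0.245, 95% interval from -0.98 to 0.24). Since Procr was chosen for its rise in E0771, neither this test nor its interaction test is independent of that choice. Procr was thus read in both lines, Tfpi mainly in E0771, and Thbd and Serpine2 almost wholly in NMuMG. Each of these comparisons is of one gene between lines. CPM is not scaled to transcript length, so levels of different genes are not compared.

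The rest of the system was held in 3 lists, also chosen with earlier results of these data known, so their counts are descriptions. Of the 15 other plasminogen genes tested in NMuMG, 9 rose with lean secretome over control and the other 6 did not pass, where 19.1% of all genes rose and 19.1% fell. Their median was 0.17, against 0.00 over all genes. Thbs1, which encodes the matrix protein thrombospondin-1, rose by 1.28 (SE 0.0681, adjusted p = 6.19e-08). In E0771 Thbs1 stayed at or below 0.261 CPM in all libraries. Of the 11 other plasminogen genes tested in E0771, 4 passed as higher and 5 as lower, where 27.3% of all genes passed as higher and 29% as lower, with a median of -0.01. The higher ones included the integrin gene Itgb3 (0.76, SE 0.142). The lower ones included Lrp1 (-1.21, SE 0.153), whose protein clears protease and inhibitor complexes, Igf2r (-0.93, SE 0.0625), whose protein binds Plaur, and the integrin gene Itga3 (-0.86, SE 0.0504). With lean over obese secretome, 8 of the 15 in NMuMG rose and 1 fell, where 17.6% of all genes rose and 17.4% fell. Without obese replicate 1 these counts were 10 and 1. With obese secretome over control, 2 of 15 rose in NMuMG, where 2.34% of all genes rose. They were Itga3, by 0.12 (adjusted p = 0.0133), and Eno1, which encodes a plasminogen-binding enolase and has a near-identical copy that could share its reads, by 0.10 (adjusted p = 0.0432). The Itga3 call was lost without control replicate 1 (adjusted p = 0.127), control replicate 3 (0.0635) or obese replicate 3 (0.0616), and was at 0.0473 without obese replicate 1. The Eno1 call was lost without control replicate 1 (0.210), control replicate 3 (0.187), obese replicate 1 (0.0839), obese replicate 2 (0.0729) or obese replicate 3 (0.117). In E0771 Itga3 was the 1 gene of 11 that fell, where 1.4% of all genes fell, by 0.31 on the log2 scale (adjusted p = 0.00113), and by 0.32 without obese replicate 1 (adjusted p = 0.00475).

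Of the 13 other coagulation genes tested in NMuMG, 2 rose and 4 fell with lean secretome over control, where 19.1% of all genes rose and 19.1% fell, with a median of 0.03. Proc, which encodes the protein C bound by the Procr product, was at 17.1, 18.7 and 17.5 CPM in control medium, 17.0, 18.2 and 15.8 with obese secretome and 23.8, 24.2 and 25.7 with lean secretome. It rose by 0.47 over control (SE 0.0682, adjusted p = 8.00e-07), with all lean libraries above the rest. Pros1, which encodes the protein C cofactor protein S, was at 57.5, 50.8 and 55.4 CPM, then 43.9, 50.8 and 50.0, then 32.1, 35.4 and 34.1 in the order control, obese, lean. It moved the other way, falling by 0.69 (adjusted p = 1.06e-11). Ano6, whose protein exposes the phospholipid that clotting complexes need, fell by 0.28 (adjusted p = 1.81e-08), and the fibrinogen chain gene Fgb by 0.78 at a mean of 1.49 CPM (adjusted p = 0.0140). The Fgb call was lost without control replicate 2 (-0.44, adjusted p = 0.224) and without lean replicate 2 (-0.69, adjusted p = 0.0582). In E0771, where 11 of the list were tested, 3 passed as higher and 2 as lower, where 27.3% and 29% of all genes did. Vwf, the von Willebrand factor gene, lay 0.71 above control (SE 0.229), at 1.97, 1.19 and 1.57 CPM in control and 2.50, 1.99 and 3.28 CPM in lean libraries. With lean over obese secretome, 3 of the 13 in NMuMG rose and 3 fell, where 17.6% of all genes rose and 17.4% fell. Without obese replicate 1 these counts were 2 and 3.

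Among protease-activated receptors, F2rl1 (PAR2), which tissue factor complexes can activate, was at 75.8, 78.3 and 78.6 CPM in NMuMG control medium, 101, 84.9 and 92.7 with obese secretome and 135, 138 and 139.8 with lean secretome. The 3 media were ordered without overlap. It rose by 0.83 with lean secretome over control (log2, SE 0.0464, adjusted p = 1.02e-14), a larger difference than the 0.27 of F2r. With obese secretome it rose by 0.28 (adjusted p = 3.26e-04), and by 0.21 without obese replicate 1 (adjusted p = 0.00372). In E0771 it was at 29.9, 25.8 and 32.0, then 28.2, 24.1 and 22.7, then 40.6, 38.5 and 39.4 CPM, with the lean group 0.43 above control. The E0771 obese group differed from control by -0.23 (adjusted p = 0.150), and F2rl1 was called lower there without obese replicate 1.

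**Figure D4:**
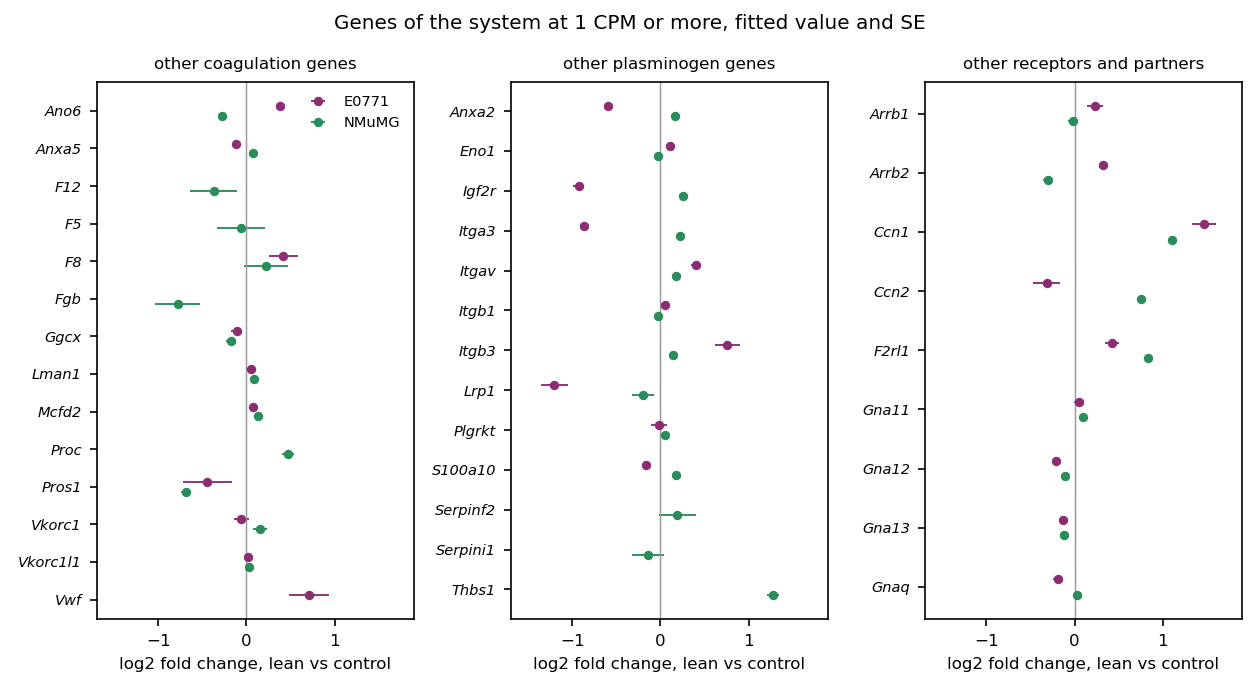
Fitted log2 fold change of lean over control with SE for other genes of the system with a mean of at least 1 CPM in the line, E0771 in purple and NMuMG in green. Ccn1 (1.47 and 1.11) is high in both lines, whereas Lrp1 (-1.21) and Igf2r (-0.93) are lowest in E0771.

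Markers of other cells were read in the same libraries, since Procr, Thbd and Tfpi are also known from endothelium. Of 8 endothelial markers, E0771 had 2 at 1 CPM or more (Pecam1 and Vwf), and their sum ran from 5.66 to 6.02 CPM in control, 5.37 to 7.40 in lean and 5.26 to 7.98 in obese libraries. Cdh5, Kdr, Tek, Tie1 and Emcn were under 0.1 CPM on average. NMuMG had none at 1 CPM, with sums of 0.303 to 0.429 CPM in control, 0.556 to 0.791 in lean and 0.289 to 0.709 in obese libraries. Adipocyte markers at 1 CPM or more were 0 of 7 in E0771 and 1 of 7 in NMuMG (Cidec). The sum of the 7 in NMuMG was 2.07 to 2.17 CPM in lean libraries against 0.322 to 0.728 in control and 0.330 to 0.960 in obese libraries. Nearly all of it was Cidec, at a mean of 1.07 CPM and at most 2.08 CPM. The next highest of the 7, Adrb3, averaged 0.0321 CPM. Lep was at 0 in both lines. Other sums also moved with medium. That of 6 fibroblast and mesenchymal genes in E0771 was at 3879 to 4042 CPM in control, 2224 to 2486 in lean and 3441 to 3770 in obese libraries, and in NMuMG it was highest in obese libraries, at 1880 to 1930 against 1743 to 1842 in control and 1767 to 1798 in lean. The epithelial sum in NMuMG was at 7212 to 7631 CPM in control, 7904 to 8184 in lean and 6831 to 7123 in obese libraries, and in E0771 at 249 to 258, 243 to 247 and 229 to 241 in that order. The sum of 6 macrophage and leukocyte genes in E0771 was at 4.03 to 5.84 CPM in control, 5.91 to 5.97 in lean and 4.64 to 5.35 in obese libraries. The part of these sums in the values above was not tested.

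By Pearson r of log2 CPM with Procr over the 9 libraries of a line, the most similar genes in E0771 included Pik3cb (0.997), Pdlim7 (0.996), Jmjd6 (0.995) and Smu1 (0.995). In NMuMG they were Gjb1 (0.995), Sertad2 (0.994), Perp (0.993), Trpa1 (0.992) and Gpx4 (0.992). Such values describe a shared separation of lean from other libraries and are common, since 1668 of 9533 genes in E0771 and 926 of 10179 in NMuMG had an r above 0.9. Among the 9 genes, the closest to Procr in E0771 were Plaur (0.969) and F3 (0.962). In NMuMG they were Plat (0.990) and Plaur (0.973), and Plau ran opposite (-0.79). In E0771 Plau had an r of 0.48.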

How the data were processed

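The authors deposited raw counts per Ensembl gene ID from directional poly(A) libraries sequenced with paired 150 bp reads, per the labels' protocols. Reads went through cutadapt 1.16, STAR 2.7.9a and featureCounts 1.6.3 with genome build GRCm39, per the submitters' processing notes. The strand setting and annotation release are not given in the sources used here. Symbols came from GENCODE M21, which named 52073 of 56980 IDs (99.7% of counts) and lists no gene that shares exons with the 9 genes.

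Each line was fitted alone with 3 media in edgeR 4.0.16 (R 4.3.3) after filterByExpr, with TMM factors (0.987 to 1.01), a robust quasi-likelihood fit and Benjamini-Hochberg adjustment over all genes of a contrast. Calls were made at an adjusted p under 0.05. The lines were compared in 1 fit of 18 libraries and 6 groups. CPM is the deposited count scaled to a common library total. SE is the absolute log2 fold change divided by the root of F. The scripts were tested on simulated data. With libraries of 22929035 to 31094119 counts, 3 reads in 1 group of 3 libraries correspond to 0.0346 to 0.0402 CPM. The alternatives were DESeq2 1.42.0, its size factors in edgeR, no filter, only the 2 groups compared, a replicate block and leaving out each library.

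The 9 genes, the 3 lists and the marker lists were chosen with earlier results of these data known. Named list genes are the 3 largest called rises and falls at a mean of at least 1 CPM, with the same rule applied separately to the receptor list. Genes like Procr are the 5 highest r among genes whose log2 CPM (prior count 2) averaged 2 or more. Of 31 other coagulation symbols 30 were in the table; Protz was unmatched. Some genes these rules select are not reported here. The planned SkBr3 contrasts were not run, since human IDs were not paired with symbols here.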

Additional observations from a re-analysis of the deposited data

Results flagged for a closer look

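None of the 9 genes is among the results here. They concern 7 other genes of the system whose responses differed between the lines in a test, or went opposite ways without a test. For 3 of them the obese effect over control differed in the interaction test (edgeR, Benjamini-Hochberg, E0771 minus NMuMG, log2). That test called 1 of 15 other coagulation genes, 2 of 15 other plasminogen genes and 1 of 9 receptors and partners, against 1.69% of all genes. Only list genes named by the rule above are followed here. Itga3 gave -0.43 (SE 0.0529, adjusted p = 5.00e-06), falling in E0771 and rising in NMuMG. Without obese replicate 1 of E0771 or of NMuMG it gave -0.43 (adjusted p = 1.59e-05) and -0.42 (adjusted p = 1.53e-05). F2rl1 gave -0.50 (SE 0.1004, adjusted p = 0.00656), with 28.2, 24.1 and 22.7 CPM in E0771 obese libraries against a control mean of 29.2, and higher obese than control libraries in NMuMG. Without the same libraries it gave -0.60 (adjusted p = 1.42e-04) and -0.43 (adjusted p = 0.0112). Ano6 gave 0.21 (SE 0.0527, adjusted p = 0.0256). It gave 0.22 without obese replicate 1 of E0771 (adjusted p = 0.0379), and the call was lost without that of NMuMG, at 0.20 (adjusted p = 0.0783).

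In other cases every lean library moved one way in E0771 and the opposite way in NMuMG, and the difference was not tested. For lean over control it was -1.18 for Igf2r, -1.08 for Itga3, -1.07 for Ccn2, -1.75 for Proc, 0.63 for Arrb2 and 0.67 for Ano6. For lean over obese it was -1.13 for Igf2r, -0.65 for Itga3, -1.05 for Ccn2, 0.52 for Arrb2 and 0.46 for Ano6. Without obese replicate 1 of both lines these were -1.19, -0.66, -1.005, 0.54 and 0.46 in that order. Proc in E0771 lay between 0.193 and 0.872 CPM, so its value there rests on few reads. The share of all genes that moved in opposite ways was not counted, so these cases may be common. For lean over control, 56.3% of all genes tested in E0771 passed the threshold, against 38.2% of those in NMuMG. For lean over obese these shares were 52.7% and 35%. Rises and falls were about equally frequent among them.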

How the results depend on the processing

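No called value changed direction among 1485 alternative values. Of these, 1379 kept their side of the threshold, stayed near their count or, for E0771 lean values, moved by less than the SD within groups. For single genes in the E0771 lean comparisons, the alternative values were set against that SD and not against the threshold. In E0771 with obese secretome over control, genes called higher were 0, but 1 (F3) without a filter on low counts and in DESeq2, and 0 to 1 when single libraries were left out. In NMuMG, genes called lower with lean secretome over control were 1 (Plau), but 0 without the filter, in DESeq2 and with the replicate block, and 0 to 1 when single libraries were left out. Genes called higher with lean over obese secretome were 5, but 3 with only the 2 groups compared (F3 and F2r lost), and 3 to 5 when single libraries were left out. Genes called higher with obese secretome over control were 3, but 5 in DESeq2 (F3 and Plaur gained) and 0 to 5 when single libraries were left out. The causes were not tested. Residuals of same-numbered libraries in different media of a line correlated at -0.0942 to 0.110 (E0771) and -0.0285 to 0.0250 (NMuMG). No pairing by replicate number was thus seen within a line, and pairing across the lines was not tested. With the replicate block F3 was also no longer called between lean and obese secretome in NMuMG (adjusted p = 0.0554). Thbd and Serpine2 had too few reads in E0771 to be fitted, and at their depth the intervals of Thbd and Tfpi in NMuMG were wide.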

Other observations

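The list of receptors and partners also held the signalling proteins downstream of the thrombin receptors and the secreted matrix proteins CCN1 and CCN2, whose genes respond to thrombin. Ccn1 was at 146, 156 and 151 CPM in NMuMG control medium, 177, 155 and 164 with obese secretome and 339.5, 304 and 330.2 with lean secretome. It rose by 1.11 with lean secretome over control (log2, SE 0.0486, adjusted p = 1.83e-12, edgeR). In E0771 it was at 4.71, 3.99 and 4.36, then 4.43, 3.81 and 4.61, then 11.5, 9.94 and 15.0 CPM, again highest in the lean libraries. Ccn2 rose in NMuMG by 0.75 (adjusted p = 1.06e-18), but in E0771, where it stayed between 2.72 and 4.43 CPM, the lean group lay below control. Of 9 genes of this list tested in NMuMG, 4 rose and 3 fell with lean secretome over control, where 19.1% of all genes rose and 19.1% fell, with a median of 0.03. With lean over obese secretome, 4 rose and 2 fell, where 17.6% of all genes rose and 17.4% fell. Without obese replicate 1 these counts were 5 and 3.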
